A study of Mus musculus with 4 samples.

Results

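The cadherin and protocadherin genes described here are those whose array symbol starts with Cdh and a digit, or with Pcdh and a digit or the letter a, b or g, and which have a probe set paired with exactly 1 symbol. Of 18193 genes on the array, 56 met that rule, with 101 of 45101 probe sets. They comprised 21 cadherins, 12 protocadherins that lie outside the gene clusters, 22 protocadherins of the beta cluster and 1 of the gamma cluster. A further 37 family genes of the RefSeq table, among them 14 of the alpha cluster, 21 of the gamma cluster, Cdh12 and Cdh24, had no probe set of that kind and were not analysed here as single genes. The samples were complete left hippocampi of wild-type mice, numbered 11, 13, 15 and 17, described as biological replicates and measured on 1 Affymetrix array each. They form a single group, and the labels used here name no strain, age, sex or treatment. The labels do not say in so many words that each came from its own animal, so every SD measures the spread between these samples. The values are log2 intensities made by the authors with RMA, which corrects the background and brings the arrays to a common scale. The number of arrays limits the precision. Each gene is represented by its probe set with the highest mean, and levels are given as mean ± SD (n = 4).

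Cadherins are calcium-dependent adhesion proteins that hold neighbouring cells together through repeated extracellular domains. Classical cadherins bind β-catenin and p120 catenin with their cytoplasmic tails and so couple the contact to actin, and in hippocampus they sit beside the release and receptor zones of excitatory synapses. Protocadherins bind more weakly and use other cytoplasmic partners. The delta protocadherins are separate genes that mark subsets of neurons. Most, but not all, clustered alpha, beta and gamma genes are each read from a promoter that single neurons choose in part at random. This gives neighbouring cells different surface identities. In whole tissue, fewer cells of a type and less RNA per cell cannot be told apart, and a cluster gene chosen by few neurons gives a low average.

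A gene was called above background when its mean exceeded 6.44, the 95th percentile of 44 measured genes of testis, liver, skin, muscle and other tissues. Of the 56 genes, 16 (28.6%) were above it, against 44.4% of all genes. The remaining 40 had means between 2.58 and 6.04. With the limit at the highest background gene, 7.84, 8 of the 56 passed, against 4433 of all 18193 genes. By structure, 7 of 21 cadherins, 7 of 12 non-clustered protocadherins and 2 of 23 clustered ones passed. Without the clustered genes the share was 42.4%, close to that of all genes. A dim probe set is no proof that its gene was silent. Probe sets bind with different strength, so the level of one gene is not set against that of another. The 4 neuronal markers Snap25, Syt1, Stmn2 and Nefl were all above background, as were 6 of 6 astrocyte, 4 of 4 CA1 and 3 of 4 dentate granule cell markers, and 2 of 4 CA3 markers.

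**Figure D1:**
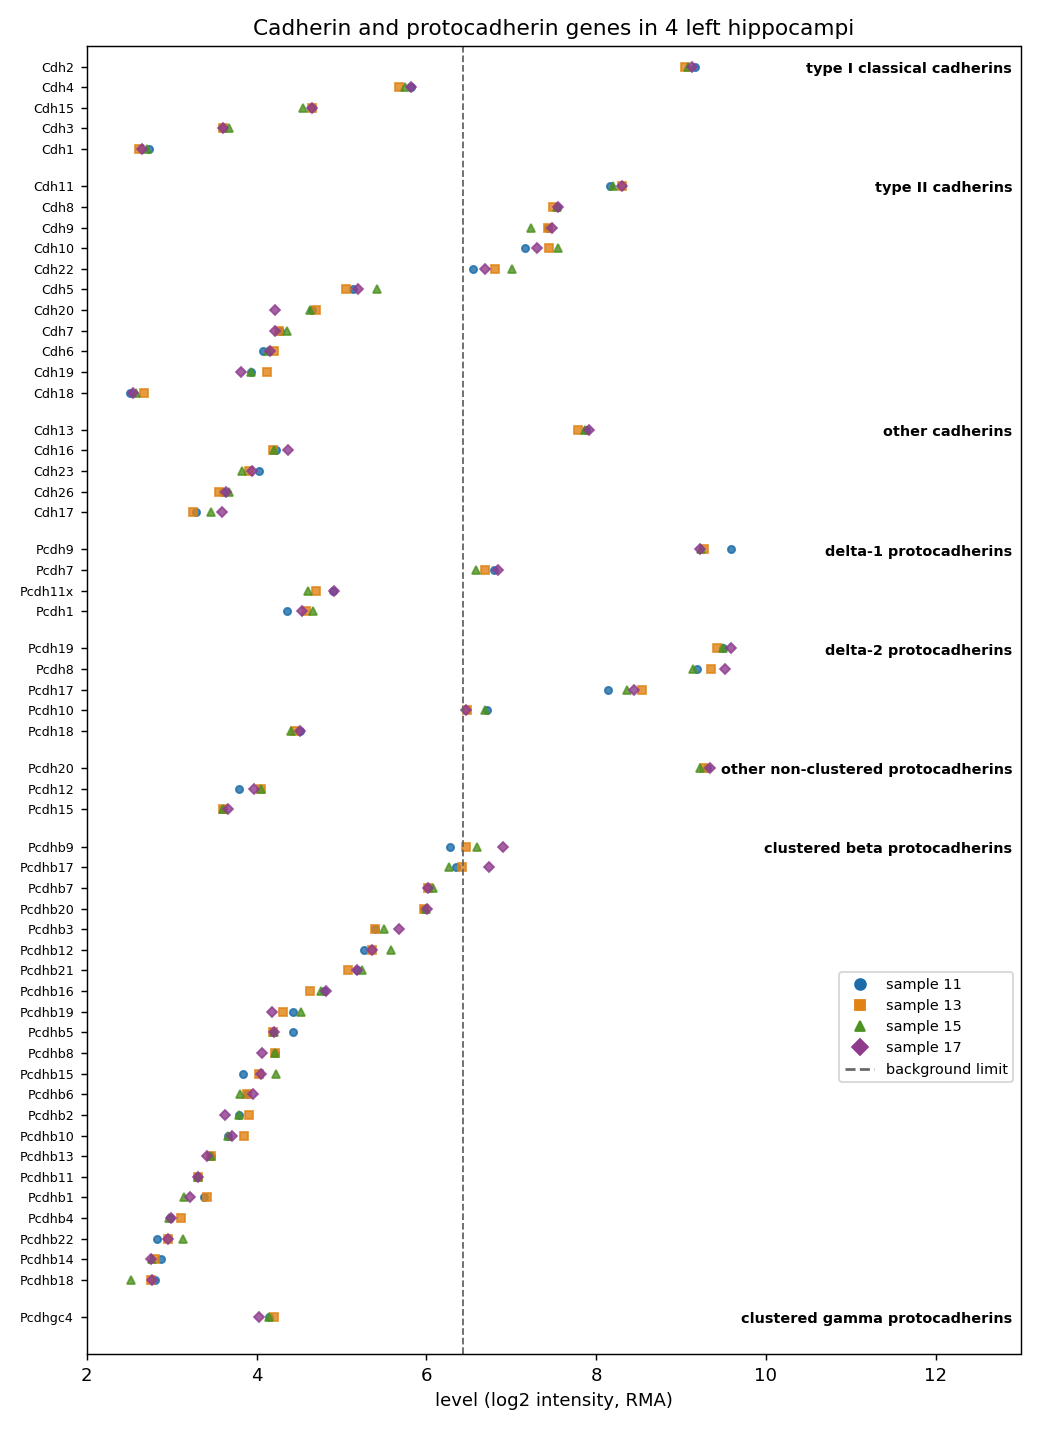
Level of every cadherin and protocadherin gene (log2 intensity on the horizontal axis) in samples 11, 13, 15 and 17, by structural group; the dashed line is the background limit of 6.44. Non-clustered protocadherins and type II cadherins lie on both sides of the line, and 20 of 22 genes of the beta cluster have means to its left.

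**Figure D2:**
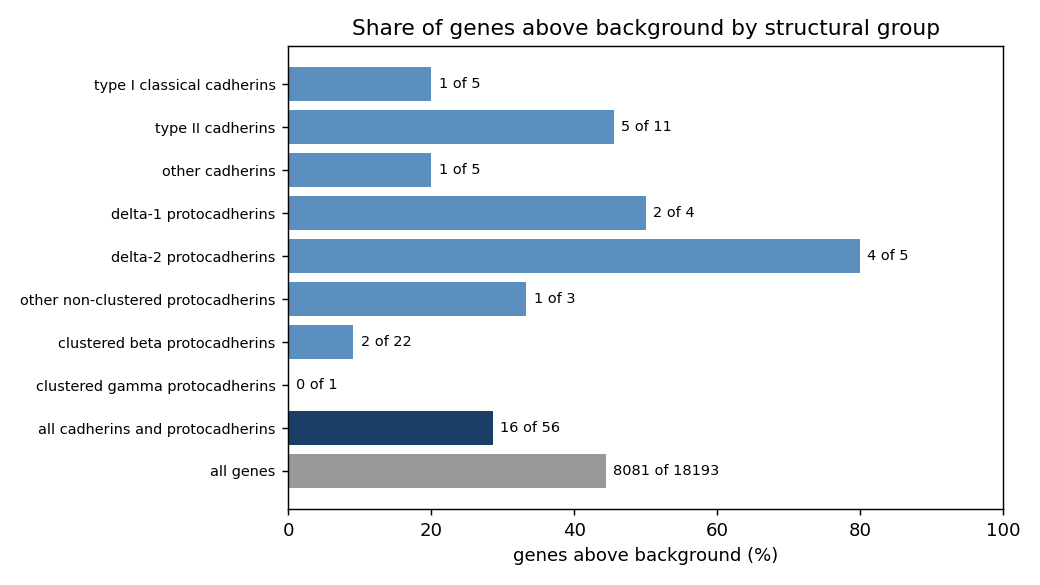
Share of genes above background (horizontal axis, in %) by structural group, with counts; all members stand at 28.6% and all genes at 44.4%. The delta-2 protocadherins, at 4 of 5, and the beta cluster, at 2 of 22, are the groups of 4 or more genes with the highest and lowest shares.

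Among the detected protocadherins, Pcdh8, Pcdh17, Pcdh20 and Pcdh9 follow one another on chromosome 14 of assembly GRCm38.p6, with 1 other protein-coding gene between Pcdh8 and Pcdh17, 2 between Pcdh17 and Pcdh20 and 0 between Pcdh20 and Pcdh9. All 4 were above background. The stretches around their starts, 250 bases before to 50 after, differ in the number of CpG dinucleotides, the sites of DNA methylation. They are shown for 3 of these neighbours, from RefSeq with build GRCm38.p6, 5′ to 3′, in lower case with each CpG in capitals.
Pcdh17 promoter, chr14:84443313-84443612, plus strand: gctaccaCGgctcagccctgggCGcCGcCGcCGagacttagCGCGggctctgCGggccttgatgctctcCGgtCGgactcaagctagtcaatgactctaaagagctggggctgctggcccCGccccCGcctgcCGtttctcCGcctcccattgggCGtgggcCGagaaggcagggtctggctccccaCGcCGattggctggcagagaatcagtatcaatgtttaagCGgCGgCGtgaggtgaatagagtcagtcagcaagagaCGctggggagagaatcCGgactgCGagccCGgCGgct
Pcdh20 promoter, chr14:88471347-88471646, minus strand: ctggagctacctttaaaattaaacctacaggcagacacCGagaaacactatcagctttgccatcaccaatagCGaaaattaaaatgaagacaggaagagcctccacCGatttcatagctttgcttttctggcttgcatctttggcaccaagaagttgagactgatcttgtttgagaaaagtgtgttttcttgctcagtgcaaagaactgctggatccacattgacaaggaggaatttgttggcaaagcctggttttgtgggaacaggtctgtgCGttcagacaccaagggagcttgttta
Pcdh8 promoter, chr14:79771263-79771562, minus strand: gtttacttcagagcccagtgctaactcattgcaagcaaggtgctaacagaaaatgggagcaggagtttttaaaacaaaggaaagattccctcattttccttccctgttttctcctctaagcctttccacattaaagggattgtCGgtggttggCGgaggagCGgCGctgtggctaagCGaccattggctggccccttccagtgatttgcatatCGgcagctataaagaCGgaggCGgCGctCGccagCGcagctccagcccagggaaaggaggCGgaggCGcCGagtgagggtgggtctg

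The Pcdh17 window holds 26 CpG, the Pcdh20 window 4 and the Pcdh8 window 14, so genes that all gave a level well over background start in both CpG-rich and CpG-poor sequence. A promoter row was matched for 20 of the 56 genes, and where a gene had several starts the first in the table was used. The median CpG count was 18 over the 11 matched genes above background, from 2 for Cdh10 to 38 for Cdh22, and 8 over the 9 under it. For all genes on the array with a promoter the medians were 22 above and 9 under background. The TATA box letters TATAAA, searched on both strands, were in 2 of the 20 windows. They were in 1 of 11 windows of detected genes (9.09%), that of Pcdh8, against 6.41% of all genes above background. Among the 9 windows of genes under background 1 had them (11.1%), that of Pcdh15, against 12.8% of all genes under it. Over all promoters in the table the share was 13.6%. The GC box letters GGGCGG were in 5 of 11 windows of detected genes (45.5%), against 68.2% of all genes above background, and in 3 of 9 of the others (33.3%), against 42.1% of all genes under it. The share in all promoters of the table was 35.7%. TGACG, the core of the cyclic AMP response element, was in 3 of the 11 windows of detected genes (27.3%), those of Pcdh10, Cdh8 and Pcdh9, against 34.1% of all genes above background, and not in that of Pcdh8. It was in 0 of the 9 windows of genes under background, against 21.4% of all genes under it, and in 20.8% of all promoters. Such matches describe the letters in these windows and do not show a site in use.

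Other detected members are also neighbours. Cdh8 and Cdh11 are next to each other on chromosome 8, with no protein-coding gene between them, and both were above background, while Cdh5, which follows Cdh11 directly, was not. On chromosome 15, Cdh9 and Cdh10 adjoin and were both above background, while Cdh6 on the side of Cdh9 was under it. Cdh3 and Cdh1 adjoin on chromosome 8, Cdh7 and Cdh19 on chromosome 1, and none of these 4 passed.

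Of the type I classical cadherins, Cdh2 alone among 5 was above background. Cdh2 encodes N-cadherin, the classical cadherin of neurons and of the synaptic junction. Its values across samples 11, 13, 15 and 17 were 9.17, 9.05, 9.08 and 9.13 (9.11 ± 0.052), a range of 0.12 on the log2 scale. The samples lay close together by this probe set. Its other probe set above background gave 8.28, 8.19, 7.91 and 7.88 in the same order, with both of samples 11 and 13 over both of samples 15 and 17. The R-cadherin gene Cdh4, which is expressed in the developing brain and retina, was under background at 5.77 ± 0.069, with single values between 5.68 and 5.82. M-cadherin (Cdh15), known from muscle and the cerebellum, stood at 4.63 ± 0.052. The epithelial cadherins Cdh1 and Cdh3 had levels of 2.68 ± 0.053 and 3.62 ± 0.037.

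The type II cadherins, whose combinations differ between brain regions and cell types, were above background for 5 of 11 genes: Cdh8, Cdh9, Cdh10, Cdh11 and Cdh22. Cdh9, which in mouse acts at the synapses of mossy fibres on CA3 neurons, had 7.43 in each of samples 11 and 13, 7.24 in sample 15 and 7.48 in sample 17. Sample 15 was the low one and the other 3 lay within 0.05 of each other. Cdh8 kept within 7.50 and 7.55 in all samples, with an SD of 0.024. Its other probe sets were under background, at means of 4.75 and 4.14. Cdh11, also known from bone and mesenchyme, had levels of 8.17, 8.31, 8.20 and 8.31 in samples 11, 13, 15 and 17. By its other probe set above background Cdh11 was likewise lowest in sample 11, at 6.53, against 6.89, 6.86 and 6.83 in samples 13, 15 and 17.

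Cdh10 and Cdh22 had the same order of samples. Cdh10 stood at 7.16, 7.44, 7.55 and 7.31 in samples 11, 13, 15 and 17, a 1.31-fold span. Cdh22, named PB-cadherin after pituitary and brain, stood at 6.55, 6.81, 7.01 and 6.69, a 1.38-fold span. In both, sample 11 was lowest and sample 15 highest. The 4 CA1 markers deviated from their own means by an average of -0.09, 0.04, 0.14 and -0.10 across samples 11, 13, 15 and 17, so sample 15 was highest there too and samples 11 and 17 were low. Of the CA1 markers Wfs1, Man1a and Mpped1 were each highest in sample 15, and Fibcd1 was highest in sample 13. The 3 microglia markers above background averaged -0.11, 0.04, 0.10 and -0.03 across the same samples, but they did not share 1 order. Csf1r was highest in sample 15, Cx3cr1 in sample 11 and C1qa in sample 13. P2ry12, under background, was highest in sample 11. The part of these cells in the Cdh10 and Cdh22 values was not tested. The order was not the same in the Cdh10 probe set just under background, which gave 6.43, 6.25, 6.60 and 6.13, so for Cdh10 sample 15 was highest in both and the lowest sample differed. Cdh22 has 1 probe set, so its order cannot be set against another.

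Cdh5, Pcdh12, Cdh20, Pcdh15 and Cdh19, known from endothelium, oligodendrocyte precursors or Schwann cells, were each under background. Cdh5, or VE-cadherin, the adhesion protein of endothelial junctions, stood at 5.14, 5.06, 5.42 and 5.20 in samples 11, 13, 15 and 17. Pcdh12, also known from endothelium, had 3.96 ± 0.12. Of 6 other endothelial markers 3 were above background, among them Cldn5 at 8.15 ± 0.22 and Flt1 at 8.15 ± 0.053, and Pecam1 was under it at 4.40 ± 0.28. Cdh20 and Pcdh15, which oligodendrocyte precursors express, were at 4.55 ± 0.22 and 3.62 ± 0.034, and the 4 precursor markers Pdgfra, Cspg4, Olig1 and Olig2 were all above background. Cdh20 was lowest in sample 17 at 4.22, with the other samples between 4.63 and 4.70. Cdh19, known from Schwann cells, had 3.95 ± 0.13. The type II genes Cdh6, Cdh7 and Cdh18 had means of 4.14, 4.28 and 2.58.

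Of the remaining cadherins, Cdh13 was above background and 4 were not. Cdh13 encodes T-cadherin, which is held in the membrane by a lipid anchor and has no cytoplasmic tail. Its levels were 7.88, 7.78, 7.86 and 7.92 across samples 11, 13, 15 and 17. A further probe set gave 7.35, 7.27, 7.39 and 7.35, and in both sets sample 13 was lowest. Its remaining probe sets were under background at 3.19 and 2.55. The kidney cadherin Cdh16, the liver and intestine cadherin Cdh17, Cdh23 of the hair cell tip link and Cdh26 had means between 3.40 and 4.25.

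Non-clustered protocadherins were detected for 7 of 12 genes. Of the delta-1 genes, Pcdh9 and Pcdh7 were above background and Pcdh1 and Pcdh11x were under it, at 4.54 ± 0.13 and 4.78 ± 0.15. The Pcdh9 level was 9.59 in sample 11, against 9.28, 9.24 and 9.22 in samples 13, 15 and 17. Sample 11 stood apart from the other 3, which lay within 0.06 of each other. A different probe set of Pcdh9 also put sample 11 highest, with 8.68, 8.56, 8.40 and 8.40, and the remaining one was under background at 3.05. Pcdh7, called NF-protocadherin in the frog, had 6.80, 6.70, 6.58 and 6.84 in the same order, and its other probe sets were under background, at 4.19 in every sample and at 2.67.

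Of the delta-2 genes, 4 of 5 were above background. Pcdh19, an X-linked gene whose human counterpart is mutated in an epilepsy of girls and women, stood at 9.49, 9.43, 9.49 and 9.59 in samples 11, 13, 15 and 17. Another probe set stayed between 8.78 and 8.79. The samples were thus near one another by both, but the third probe set, under background, had 6.13 in samples 11 and 13, 5.56 in sample 15 and 5.46 in sample 17. Pcdh17, which in mouse organises presynaptic assembly in corticobasal circuits, read 8.14, 8.55, 8.37 and 8.45 across samples 11, 13, 15 and 17. Sample 11 was the low one, a 1.33-fold span, but the other Pcdh17 probe set held exactly 7.96 in every sample. Pcdh10, which takes part in the removal of excitatory synapses in mouse neurons, was near the limit, at 6.71, 6.48, 6.69 and 6.46. Samples 11 and 15 were over samples 13 and 17. Its other 5 probe sets were under background, between 3.09 and 5.85. Pcdh18 had 4.47 ± 0.054.

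Pcdh8, also called arcadlin, is induced by synaptic activity in rat hippocampus and takes N-cadherin off the synaptic membrane through the kinase Taok2. Across samples 11, 13, 15 and 17 it read 9.19, 9.36, 9.14 and 9.52, which spans 1.30-fold. The other probe set gave 9.08, 9.11, 9.06 and 9.35. In both, samples 13 and 17 lay over samples 11 and 15. Of 7 immediate early genes, which neurons switch on with activity, 6 were above background, and their values deviated from their own means by an average of -0.29, 0.21, -0.17 and 0.24 across those samples. Fos stood at 7.68, 8.30, 7.50 and 8.88 and Arc at 8.01, 8.82, 8.15 and 8.66 in the same order, and the same pair of samples was higher. Junb was highest in sample 13 and lowest in sample 17. Npas4, under background, had 4.99, 5.56, 6.27 and 6.02 and was highest in sample 15. The part of activity in the Pcdh8 values was not tested.

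Pcdh20 was above background in all samples, at 9.31, 9.27, 9.22 and 9.34 across samples 11, 13, 15 and 17. Its other probe set gave 7.60, 7.66, 7.26 and 7.34. The main set kept the samples within 0.12, while in the other one samples 11 and 13 were over samples 15 and 17.

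In the beta cluster, Pcdhb9 and Pcdhb17 were above background and 20 genes were under it. Pcdhb9 read 6.28, 6.46, 6.60 and 6.90 across samples 11, 13, 15 and 17, a range of 0.62 or 1.54-fold. It exceeded the limit in 3 of 4 samples. Pcdhb17 stood at 6.35, 6.42, 6.27 and 6.74, with sample 17 high, and exceeded the limit in 1 sample. These 2 were just inside the limit with means of 6.56 and 6.45, and Pcdhb7 at 6.04 ± 0.031 and Pcdhb20 at 5.99 ± 0.018 were just outside it. Pcdhb3 and Pcdhb12 followed at 5.49 ± 0.14 and 5.40 ± 0.13, Pcdhb21 at 5.17 ± 0.069 and Pcdhb16 at 4.75 ± 0.083. The other 14, namely Pcdhb1, Pcdhb2, Pcdhb4, Pcdhb5, Pcdhb6, Pcdhb8, Pcdhb10, Pcdhb11, Pcdhb13, Pcdhb14, Pcdhb15, Pcdhb18, Pcdhb19 and Pcdhb22, had means between 2.72 and 4.36. Beta genes are close copies of each other in large part, so a probe set may take up RNA of more than its own gene. The gamma cluster was represented by Pcdhgc4, an isoform tied to neuron survival in mouse, at 4.13 ± 0.074.

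The alpha cluster could be read only through probe sets paired with several symbols. The last exons of alpha transcripts are common to the whole cluster, but where these probe sets lie in a transcript was not examined. Of the sets, 3 list 14 alpha symbols each, and all 3 were above background. The first read 9.69, 9.72, 9.72 and 9.77 across samples 11, 13, 15 and 17, and the second 8.70, 8.61, 8.49 and 8.46. The third had 6.57 in sample 15 and 6.40 in the others. The remaining 3 probe sets list 9 alpha symbols and were under background, with means between 3.73 and 4.58. No single alpha gene can be named from these sets.

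**Figure D3:**
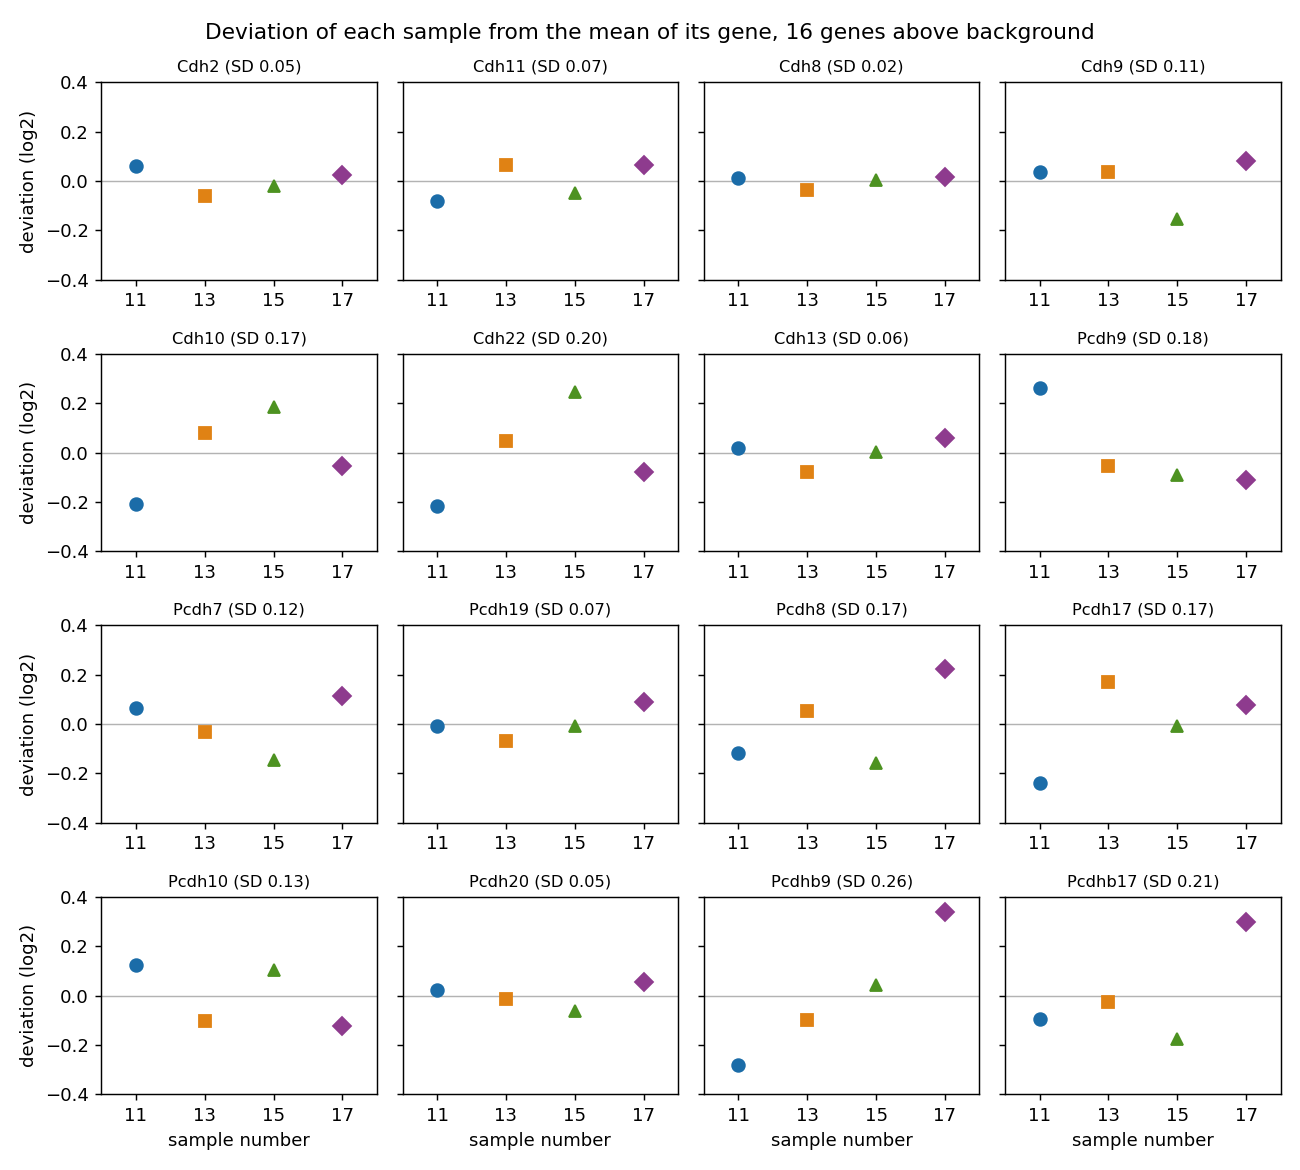
Deviation of samples 11, 13, 15 and 17 from the mean of each of the 16 genes above background (vertical axis, log2 scale; 1 point per sample). Pcdhb9 has the widest span, 0.62, Cdh8 the narrowest, 0.05, and sample 17 is highest in 9 of the 16 genes.

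The ranges of the 16 genes between the samples reached 0.62 on the log2 scale. No gene passed the test of spread or the test of probe sets described below. Dixon's test for an outlying sample, given further below, flagged Pcdh9. The SD of the 16 genes lay between 0.024 and 0.26 with a median of 0.123, against a median of 0.0846 for 8081 genes above background, and 10 of 16 exceeded that median. Of the 16 genes 1, Pcdhb9, had a range above 0.5 on the log2 scale, while 4.44% of all genes above background did. The count was 0 without sample 11 and 0 without sample 17, the lowest and highest values of Pcdhb9. Sample 17 was highest in 9 of the 16 genes (56.2%), against 38.9% of all genes above background. Sample 11 was lowest in 5 (31.2%), against 47.4%, and sample 15 was lowest in 5 (31.2%), against 12.8%. The median absolute difference between 2 samples over the 16 genes was lowest for samples 11 and 15, at 0.083, and highest for samples 15 and 17, at 0.173, where all genes above background had 0.101 and 0.0742.

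In the test of spread with limma, 0 of the 24 probe sets of these genes above background passed at an adjusted p of 0.05, and 0 of 12890 (0%) on the whole array did. At an unadjusted p under 0.05 the 16 representing probe sets gave 0 calls, and the whole array 2.89%. The unadjusted p from limma was 0.108 for Pcdh9, 0.11 for Pcdhb9 and 0.111 for Pcdh8, with an adjusted p of 0.888 for each. For Pcdh17 it was 0.146, for Cdh22 0.184, for Cdh2 0.678, for Cdh13 0.719 and for Pcdh20 0.668. Each variance was set against a prior fitted to the same table, with 2.22 degrees of freedom. Such a test on 4 arrays has little reach. Even Ttr, with the largest range of all genes above background, 3.30 on the log2 scale, did not pass. These counts therefore do not show that the samples were alike.

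Where a gene had 2 or more probe sets above background, a second test set the variance between samples against the disagreement among its probe sets. That disagreement was moderated over all genes with limma. The outcome depends on the size of the shared differences, so a gene whose probe sets rank the samples alike need not pass. It could be made for 8 of the 16 genes: Cdh2, Cdh11, Cdh13, Pcdh8, Pcdh9, Pcdh17, Pcdh19 and Pcdh20. With Benjamini-Hochberg adjustment 0 of the 8 passed, against 0.833% of 2522 genes. Pcdh8 had an unadjusted p of 0.00904 and an adjusted p of 0.122 with limma's moderated variance, and Pcdh9 had 0.0105 and 0.127. These 2 of 8 genes were under 0.05 before adjustment, where 20.0% of all genes tested were, so the share is near the background. The adjusted p of the other 6 ran from 0.322 for Cdh11 to 0.683 for Pcdh19. Both Pcdh19 probe sets were lowest in sample 13 and highest in sample 17, with samples 11 and 15 equal, so its p does not show differing orders.

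**Figure D4:**
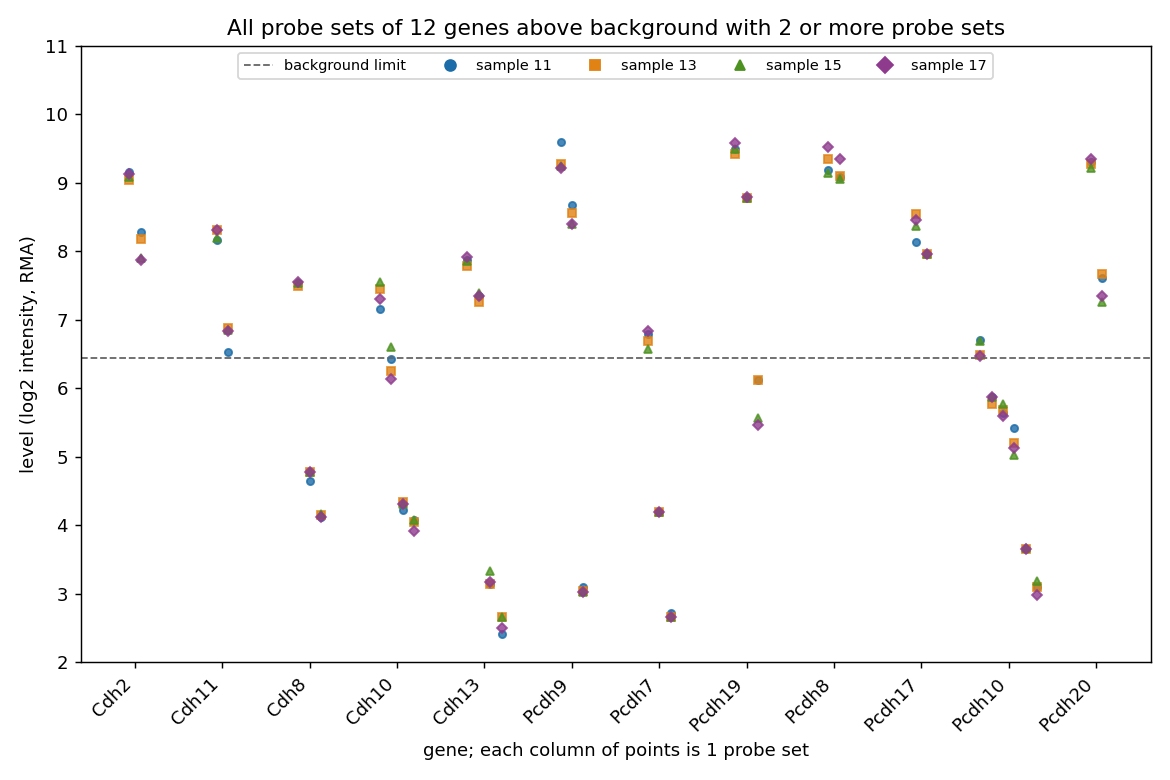
Level (log2 intensity, vertical axis) of every probe set of the 12 genes above background that have 2 or more, with 1 column of points per probe set and 1 point per sample; the dashed line is the background limit of 6.44. For 7 of the 12 genes at least 1 probe set lies under the line.

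Not every probe set of a detected gene was above background. Of the 16 genes above background, 12 had 2 or more probe sets, and 7 of these had at least 1 under background. The probe table does not say where in a transcript a set lies. The difference between the 3′ and 5′ probe sets of Gapdh, a measure of how far RNA and labelling reach towards the 5′ end, was 0.62 in samples 11 and 13, 2.64 in sample 15 and 3.79 in sample 17. For Actb it was 1.10, 1.25, 1.93 and 2.33 across samples 11, 13, 15 and 17, with samples 15 and 17 again over samples 11 and 13. Of the 24 probe sets above background, 4 had both of samples 11 and 13 over both of samples 15 and 17: the 2 of Pcdh9 and the lower ones of Cdh2 and Pcdh20. That is 16.7%, against 11.5% of all probe sets above background. The reverse order was found in 1 of 24, Pcdhb9, against 29.6% of all. The part of the 5′ signal in these values was not tested.

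The partners of these proteins inside the cell were measured as well. Of 12 catenins and actin linkers, 8 were above background. Ctnnb1, β-catenin, which binds the classical tails, stood at 11.47 ± 0.024, and Ctnna1, α-catenin of many tissues, at 8.07 ± 0.0084. The neuronal α-catenin Ctnna2 had 7.05, 7.26, 7.53 and 7.38 in samples 11, 13, 15 and 17, lowest in sample 11 and highest in sample 15, as for Cdh10 and Cdh22. Ctnna3 was under background at 3.04 in every sample. Of 10 measured cytoplasmic partners of protocadherins, such as the actin regulators of the WAVE complex, 9 passed, with Cyfip2 at 10.72 ± 0.028 and Nckap1 at 11.48 ± 0.058. Taok2, the kinase named above for Pcdh8, was under background at 6.26 ± 0.12.

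Of 18 measured genes listed with the wider cadherin superfamily 9 were above background. The list holds Dsp, desmoplakin, a plakin of the desmosome with no cadherin domain, and without it the count was 8 of 17. Of the flamingo-type cadherins, which act in planar polarity and axon growth, Celsr2 stood at 9.04 ± 0.058 and Celsr3 at 7.77 ± 0.077, and Celsr1 was under background at 3.65 ± 0.18. Fat1, a giant cadherin, had 8.10 ± 0.082. All 3 calsyntenins, cadherins of the postsynaptic membrane, passed, with Clstn1 at 11.08 ± 0.029. Among nectins and their kin 3 of 6 were above background. Nectin1 was under it at 6.26 ± 0.14. Nectin3, the partner of nectin-1 at mossy fibre contacts, stood at 7.72 ± 0.070. Of the genes of cleavage and turnover 4 of 5 passed, with Adam10, the protease that sheds N-cadherin and gamma protocadherins, at 7.62 ± 0.056.

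The genes that regulate choice of promoters in the clusters were above background in 7 of 9 cases. CTCF, which folds cluster promoters onto their enhancers, had a Ctcf level of 8.57, 8.58, 8.39 and 8.32 in samples 11, 13, 15 and 17. The cohesin genes Rad21 and Smc1a stood at 8.49 ± 0.093 and 8.40 ± 0.039. Smc3, also of cohesin, had the largest range of the list, 0.51, with 7.57 in sample 15 against 7.93 to 8.08 in the others. Smchd1, which silences cluster genes, had 7.01 ± 0.059. Dnmt3b, which methylates cluster promoters in the embryo, and Rest were under background at 5.03 ± 0.029 and 5.34 ± 0.17.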

How the data were processed

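Per the submitters' processing notes, the authors used RMA to turn the scans into the deposited log2 intensities; its version is not given in the sources. Of 101 member probe sets, 51 hold equal values in at least 2 samples and 5 in all 4, which lowers their SD. Symbols come from the array's probe table and were brought up to date through the RefSeq table of GRCm38.p6; no member changed its name. Background was the 95th percentile of 44 measured of 48 genes not expected in hippocampus. Both tests were fitted on the whole table: limma's lmFit and eBayes (trend, robust), with the residual variance over the prior variance as F with 3 and 2.22 degrees of freedom, and the test of probe sets against each other, both with Benjamini-Hochberg adjustment at 0.05. The members, lists and tests were chosen with earlier results of these data known. All members are named; test values are given for the member above background with the largest range in each structural group. Named after their values were seen were the Pcdh8 test values, Clstn1, Dsp, Smchd1, Dnmt3b, Rest, Nckap1 and Taok2 outside the first 4 of their lists, the comparison of samples 11 and 13 with 15 and 17, the CA1 and microglia values beside Cdh10, the 5 members grouped by non-neuronal cells and the promoters shown. Both tests were tried on simulated data, and the outcome is not given here. In these samples the smallest adjusted p of the limma test of spread over 12890 probe sets was 0.888. Software was limma 3.58.1 under R 4.3.3, with figures by matplotlib 3.10.9 in Python 3.11.15. Alternatives covered the background limit, probe set choice, normalization, prior, filter and each sample left out.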

Additional observations from a re-analysis of the deposited data

Results flagged for a closer look

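Pcdh9 was flagged because sample 11, at 9.59, stood far from samples 13, 15 and 17, at 9.28, 9.24 and 9.22: the gap took 0.848 of the whole range, above the 95% critical value of Dixon's test for 4 samples. Of 16 genes looked at 1 was flagged, and chance nominally flags about 1 in 20. The share flagged among all genes above background is not given here. Equal values in many probe sets may shift the nominal rate. A different probe set of Pcdh9 was also highest in sample 11, at 8.68 against 8.56, 8.40 and 8.40. There sample 13 also lay over samples 15 and 17, so that set did not put sample 11 alone apart. In both sets samples 11 and 13 were over samples 15 and 17, and the part of the 5′ signal was not tested.

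The 3 probe sets that list 14 alpha protocadherin symbols belong to no single gene and entered no count above. Their mean levels of 9.72, 8.56 and 6.45 exceeded the background limit of 6.44, the last of them by little and only through sample 15.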

How the results depend on the processing

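Of 56 genes 16 were above background at the 95th percentile of the background genes, 16 at the 90th and 8 at their highest value. The count was 14 when all 4 samples had to pass, 11 when the median of all its probe sets stood for a gene, 16 after quantile normalization again or median centring, and 15 to 16 with 1 sample left out. Over all 18193 genes, 8081 passed at the 95th percentile, 8942 at the 90th and 4433 at the highest value. With all 4 samples required 7767 of them passed, and with the median 5368. None of the 56 genes passed the limma test of spread or the test of probe sets under any alternative run. The test of spread gave 0 calls on the whole array in every run, so its repeats are no check of the members. With ranges above 0.5, 1 gene was found, with ranges above 1 it was 0, and above 0.3 it was 7 of 16. Among all 8081 genes above background, 359 had ranges above 0.5, 23 above 1 and 1785 above 0.3. At the cut of 0.5, leaving out 1 sample gave 0 to 1 of these members, and 0 without replicate 11 or replicate 17, between which the Pcdhb9 range lies. Levels of the 16 genes moved by less than their SD after quantile normalization again. Median centring leaves the mean of the 4 samples unchanged, so its count of 16 and its levels were fixed beforehand. Leaving out 1 of 4 samples cannot move a mean by as much as its SD, so this is no check of the levels. With the median of all its probe sets standing for a gene, 11 of the 12 genes with 2 or more probe sets moved by more than their SD. Pcdh8 was the exception. By that median Cdh8, Cdh10, Cdh13, Pcdh7 and Pcdh10 fell under the limit, with levels between 4.19 and 5.43. No paired analysis was possible because the samples form a single group. Signal over background limits the 40 genes under the limit and those near it, Pcdhb9, Pcdhb17 and Pcdh10.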
